A study of Drosophila melanogaster with 2 samples.

Results

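A divergent promoter is a stretch of DNA with the transcription start sites (TSSs) of a pair of genes on opposite strands, so that the genes are read away from each other. Divergent promoter peaks were defined here as peaks of CG17829 binding whose summit lay within 250 bp of the TSSs of at least 2 different protein-coding genes, with at least 1 gene on each strand. The rule found 995 such peaks among 7915 peaks of the reproducible list, or 12.6% (95% exact Clopper-Pearson interval 11.8 to 13.3). They made up 27.2% (25.8 to 28.7) of the 3652 peaks with a summit within 250 bp of any coding TSS. The remaining 2657 of those promoter peaks had coding TSSs on only 1 strand and are called one-sided below, and 4263 peaks had no coding TSS within that distance. All intervals cover counting error only.

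Binding was measured by chromatin immunoprecipitation and sequencing (ChIP-seq) in whole Drosophila melanogaster embryos aged 0 to 24 hours, of both sexes together. The embryos came from 1 transgenic line that stably expresses CG17829, annotated as Hinfp, with GFP at its C terminus, and chromatin was precipitated with an anti-GFP antibody. There was 1 group, with 2 biological replicates numbered 2 and 4, and no second genotype, age or treatment. The embryos mix many ages and tissues, and peaks that 2 genes share cannot be assigned to a cell type or to either gene. The read depth is unknown, so no precision can be given for a single peak's signal.

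Fly genomes are compact, and divergent pairs are common among genes that most cells use, such as those for ribosomes, mitochondria and RNA synthesis. Many promoters of such genes lack a TATA box and carry other short motifs, among them the DRE (TATCGATA), bound by the factor DREF, and Motif 1 (GGTCACAC), bound by M1BP. The core CGATA occurs in the sites of both DREF and the insulator protein BEAF-32. In mammals HINFP binds promoters of histone H4 genes, and GCGGACG is the core of the site of the human protein.

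The stretches between the TSSs show what a summit of this kind lies on. The first set gives strong divergent peaks whose TSSs are more than 200 bp apart, all with the summit between the TSSs. Each sequence is the dm6 plus strand from the base after the TSS of the minus-strand gene to the base before that of the plus-strand gene, with no annotated gene over it. They were read from the RefSeq genome sequence of the same assembly. Capitals mark matches, on either strand, to CGATA. They also mark GGTCACAC, the TATA box letters TATAAA and the E-box CAGCTG. A match to CGATA on the minus strand is read here as TATCG.
Art3 and mRpS10, chr3R:15229409-15229664: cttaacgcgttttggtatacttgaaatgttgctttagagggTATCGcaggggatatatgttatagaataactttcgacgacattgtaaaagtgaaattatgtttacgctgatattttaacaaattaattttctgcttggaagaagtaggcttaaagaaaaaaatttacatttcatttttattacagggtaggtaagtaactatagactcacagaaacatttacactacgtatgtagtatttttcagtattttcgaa
CG13390 and CG17294, chr2L:8376798-8377034: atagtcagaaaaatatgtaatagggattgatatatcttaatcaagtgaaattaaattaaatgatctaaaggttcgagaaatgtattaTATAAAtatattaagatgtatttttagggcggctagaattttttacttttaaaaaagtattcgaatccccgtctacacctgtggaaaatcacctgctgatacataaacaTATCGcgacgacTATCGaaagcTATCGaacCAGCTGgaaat
Cp190 and CG4338, chr3R:15275242-15275521: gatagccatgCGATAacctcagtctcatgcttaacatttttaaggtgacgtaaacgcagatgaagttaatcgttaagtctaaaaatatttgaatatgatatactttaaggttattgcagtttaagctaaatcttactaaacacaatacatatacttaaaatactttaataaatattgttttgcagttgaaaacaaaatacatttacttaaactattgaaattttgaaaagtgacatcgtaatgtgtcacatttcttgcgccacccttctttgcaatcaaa
Lon and PIG-F, chr3L:19612200-19612454: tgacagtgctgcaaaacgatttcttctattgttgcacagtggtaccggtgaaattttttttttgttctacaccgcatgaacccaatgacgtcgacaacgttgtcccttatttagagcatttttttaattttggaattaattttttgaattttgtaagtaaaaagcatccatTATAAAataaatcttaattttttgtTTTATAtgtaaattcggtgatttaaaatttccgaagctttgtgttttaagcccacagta
Mkk4 and SLIRP2, chr3R:8650797-8651083: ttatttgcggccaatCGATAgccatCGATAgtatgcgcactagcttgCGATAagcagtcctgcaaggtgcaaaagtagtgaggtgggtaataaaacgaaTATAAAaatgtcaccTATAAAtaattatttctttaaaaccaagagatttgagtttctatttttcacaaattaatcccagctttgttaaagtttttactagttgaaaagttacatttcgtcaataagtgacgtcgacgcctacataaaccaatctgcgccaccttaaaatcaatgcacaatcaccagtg

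These stretches are rich in A and T, from 63.8% at Mkk4 and SLIRP2 to 71.1% at Cp190 and CG4338. The summit lay on base 127 of 256 at Art3 and mRpS10, on base 138 of 280 at Cp190 and CG4338, on base 134 of 255 at Lon and PIG-F and on base 153 of 287 at Mkk4 and SLIRP2, near the centre. At CG13390 and CG17294 it lay on base 88 of 237, nearer to CG13390.

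The second set gives members with narrow gaps, among them the strongest, where the stretch between the TSSs is shorter and less rich in A and T.
Chro and Ssl1, chr3L:22878985-22879088: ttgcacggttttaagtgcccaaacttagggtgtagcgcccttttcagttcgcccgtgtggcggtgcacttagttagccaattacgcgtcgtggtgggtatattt
sta and inc, chrX:1483414-1483478: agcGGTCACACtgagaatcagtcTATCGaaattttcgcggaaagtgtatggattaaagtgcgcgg
RpS27 and Nup37, chr3R:25247515-25247657: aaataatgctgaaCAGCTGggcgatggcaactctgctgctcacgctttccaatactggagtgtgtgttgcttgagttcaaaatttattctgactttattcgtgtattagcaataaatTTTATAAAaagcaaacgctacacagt
SelR and Tsp86D, chr3R:10868643-10868707: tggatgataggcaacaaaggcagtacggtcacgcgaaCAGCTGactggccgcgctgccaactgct

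The stretch was 49.0% A and T at Chro and Ssl1, 53.8% at sta and inc, 62.2% at RpS27 and Nup37 and 41.5% at SelR and Tsp86D. At the first pair the summit lay 88 bp inside Chro, and at the second 42 bp inside sta, so the strongest point of binding was not between the TSSs in either. RpS27 and SelR were taken as further members with a bare stretch of up to 300 bp that held CAGCTG there and at the summit. They are examples, and some members stronger than SelR with CAGCTG at the summit are not shown.

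The third set shows, by the same conditions, members with TATCGATA at the summit, followed by a weaker member with GGTCACAC there. They are examples, and some stronger members with TATCGATA at the summit are not shown. The members shown were chosen after the values were seen.
RpS25 and CG4820, chr3R:11216288-11216534: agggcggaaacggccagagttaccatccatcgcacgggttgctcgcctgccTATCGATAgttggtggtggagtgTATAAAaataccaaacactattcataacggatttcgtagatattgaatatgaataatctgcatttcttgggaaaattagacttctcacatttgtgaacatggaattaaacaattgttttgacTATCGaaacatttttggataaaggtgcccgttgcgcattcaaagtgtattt
CG5645 and Atg12, chr3L:12136707-12136966: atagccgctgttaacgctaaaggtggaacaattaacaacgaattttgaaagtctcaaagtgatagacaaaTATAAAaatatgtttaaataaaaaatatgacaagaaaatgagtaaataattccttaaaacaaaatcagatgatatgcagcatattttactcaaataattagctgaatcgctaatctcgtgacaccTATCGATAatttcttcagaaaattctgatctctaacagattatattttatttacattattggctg
CG16903 and Unc-76, chrX:2080406-2080609: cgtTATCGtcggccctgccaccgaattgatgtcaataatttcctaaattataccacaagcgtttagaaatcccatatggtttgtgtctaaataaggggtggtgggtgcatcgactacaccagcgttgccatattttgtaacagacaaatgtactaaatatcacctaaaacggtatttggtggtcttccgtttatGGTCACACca

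The full DRE stood once in each of the first pair of these stretches, with 3 matches to CGATA in all between RpS25 and CG4820 and 2 between CG5645 and Atg12, counting those inside the DRE on both strands. In the third, 2 bases stood between GGTCACAC and the TSS of Unc-76.

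The label of a promoter shared by a pair of genes fitted nearly all members. Of 995 peaks, 979 (98.4%, 97.4 to 99.1) lay at head-to-head pairs, and 16 (1.61%, 0.922 to 2.60) at pairs whose TSSs are crossed, so that the transcripts overlap. TSSs of at least 3 coding genes lay within 250 bp at 57 peaks (5.73%), and those of at least 4 genes at 7. The 995 peaks belonged to 981 distinct pairs of nearest genes, and 14 pairs held 2 member peaks each. One such pair is RpL13, a ribosomal protein gene, and Dref, the gene of DREF itself, whose stronger summit ranked 1073 of the list and whose weaker one ranked 7134.

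The reproducible list was itself made from the replicates, so overlap with them is a description and no independent support. A peak of both full replicate lists overlapped 990 of 995 divergent peaks (99.5%, 98.8 to 99.8), against 98.9% (98.4 to 99.3) of one-sided peaks. When each replicate list was cut to its 7915 strongest peaks, 90.1% (88.0 to 91.8) of divergent peaks still overlapped a peak of both, against 81.7% (80.1 to 83.1) of one-sided peaks. That cut goes by signal, and 61.7% of divergent against 43.8% of one-sided peaks were in the stronger 50% of the reproducible list. The part of signal in this overlap was not tested. The log10 signals of the 2 replicates over the 990 matched peaks had a Pearson r of 0.909 and a Spearman rho of 0.872, a description over peaks of the same libraries. The summits of the replicates lay a median of 24 bp apart at divergent peaks and 28 bp apart at one-sided peaks. The 5 unmatched members lay at Mic26-27 and CG5916, Rnb and Drice, GPHR and CG11807, RpL18 and Neos, and Nrd1 and CG1847.

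Divergent peaks were stronger than one-sided peaks in both replicates, and the difference was larger at wide gaps. The median signal, in the authors' own values on an unstated scale, was 284.5 at divergent peaks, against 223.5 at one-sided peaks and 245.3 at peaks with no coding TSS. Among the 7915 strongest peaks of replicate 2 the medians were 159.0 at divergent, 126.3 at one-sided and 135.5 at other peaks. In replicate 4 they were 134.0, 105.9 and 112.2 in the same order of classes. The ratio of the divergent to the one-sided median was 1.273 in the reproducible list, 1.259 in replicate 2 and 1.266 in replicate 4. The classes overlapped widely: the middle 50% of signals ran from 203.3 to 458.2 at divergent peaks and from 173.0 to 328.1 at one-sided peaks. The strongest 10% of the list held 14.2% (12.1 to 16.5) of divergent peaks, against 7.90% (6.91 to 9.0) of one-sided peaks and 10.3% (9.42 to 11.3) of peaks with no coding TSS.

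**Figure D1:**
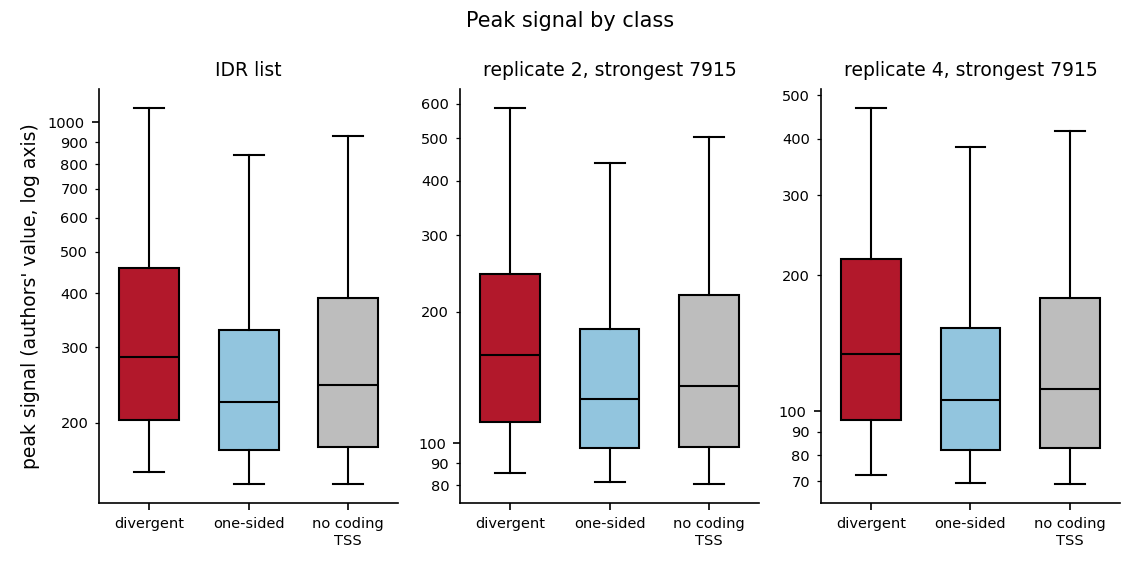
Peak signal (authors' value, log axis, with its own range in each panel) in the reproducible (IDR) list and in the 7915 strongest peaks of each replicate, for divergent, one-sided and other peaks. Boxes span the middle 50% with the median, and whiskers run to the 5th and 95th percentiles; the divergent median is the highest in all 3 panels, at 284.5, 159.0 and 134.0.

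Members with a gap of 1 to 150 bp had a median signal of 229.1, near the 223.5 of one-sided peaks, and members with a gap over 200 bp had 346.0. With a distance limit of 100 bp in place of 250 bp, which leaves only gaps up to 200 bp, 232 peaks were divergent, and the ratio of the medians was 0.989. Members with TSSs of only 1 strand within 100 bp then count as one-sided, as at CG11309 and CG7632, so both classes changed. In the full pooled list of 30000 peaks, which reaches to weaker peaks, the ratio was 2.018.

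The gaps fell into a narrow and a wide set with fewer pairs in between. The gap between the TSSs had a median of 226 bp over all members, with the middle 50% from 105 to 284 bp and a largest value of 457 bp; the rule admits no gap over 500 bp. By 50-bp step, 76 members had a gap of 1 to 50 bp, 146 of 51 to 100 bp, 116 of 101 to 150 bp and 77 of 151 to 200 bp. A further 175 had 201 to 250 bp, 197 had 251 to 300 bp, 111 had 301 to 350 bp, 59 had 351 to 400 bp and 22 had 401 to 500 bp. The same dip stood in the annotation itself, where 149 opposite-strand pairs had a gap of 151 to 200 bp, against 205 in the step before and 238 in the step after. Without the repeated histone genes described below the numbers were 131, 185 and 238.

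Among the smallest gaps were 1 bp at Atg6, an autophagy gene, and Pisd, 6 bp at CG7246 and HP1b, a heterochromatin protein gene, and at CG3032 and CG4593 and 8 bp at SerRS, a cytosolic seryl-tRNA synthetase gene, and CG17260. The largest were 457 bp at hzg and mRpS31, 448 bp at Rich and Ddx1, 442 bp at aurB, the Aurora B kinase gene, and Stam, 440 bp at Mob2 and CG7394, and 438 bp at tamo and Zfrp8. The strongest member with overlapping transcripts was CG5846 and CG4658, at rank 223, where the transcripts overlap by 105 bp between the TSSs. The same overlap was 27 bp at the histone acetyltransferase gene Gcn5 and ver, and 76 bp at the nucleoplasmin-family genes Nph and Nlp.

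The summit lay between the TSSs at 792 of 995 peaks (79.6%, 77.0 to 82.1). This share rose with the gap, which the rule partly sets. It was 26.3% at gaps of 1 to 50 bp, 53.4% at 51 to 100 bp, 62.9% at 101 to 150 bp, 83.1% at 151 to 200 bp and 96.0% at 201 to 250 bp. Above 250 bp it was 100%, which the rule itself fixes, since a summit outside a wider pair would be over 250 bp from the farther TSS. Below 250 bp the rule still leaves less room outside the pair as the gap grows, so the rise there was not free of it. The share over all members includes those fixed at 100%. Over all members the summit was a median of 74 bp from the nearer TSS, 150 bp from the farther TSS and 33.5 bp from the midpoint. The nearer TSS lay downstream of the summit in 80.7% (78.1 to 83.1) of divergent peaks and in 81.3% (79.8 to 82.8) of one-sided peaks. For divergent peaks the rule fixes this at gaps over 250 bp. One-sided peaks have no such limit, so the shares are unlike measures.

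Outside the gap, 187 head-to-head summits lay a median of 30 bp past a TSS, with 104 of them (55.6%, 48.2 to 62.9) on the side of the minus-strand gene, so neither strand was clearly preferred. Where both replicates had a matched peak, both of their summits lay between the TSSs at 705 of 990 peaks (71.2%), neither did at 166 (16.8%), and they disagreed at 119 (12.0%). The offset of the summit from the midpoint had a Pearson r of 0.675 and a Spearman rho of 0.610 between the replicates over those 990 peaks.

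**Figure D2:**
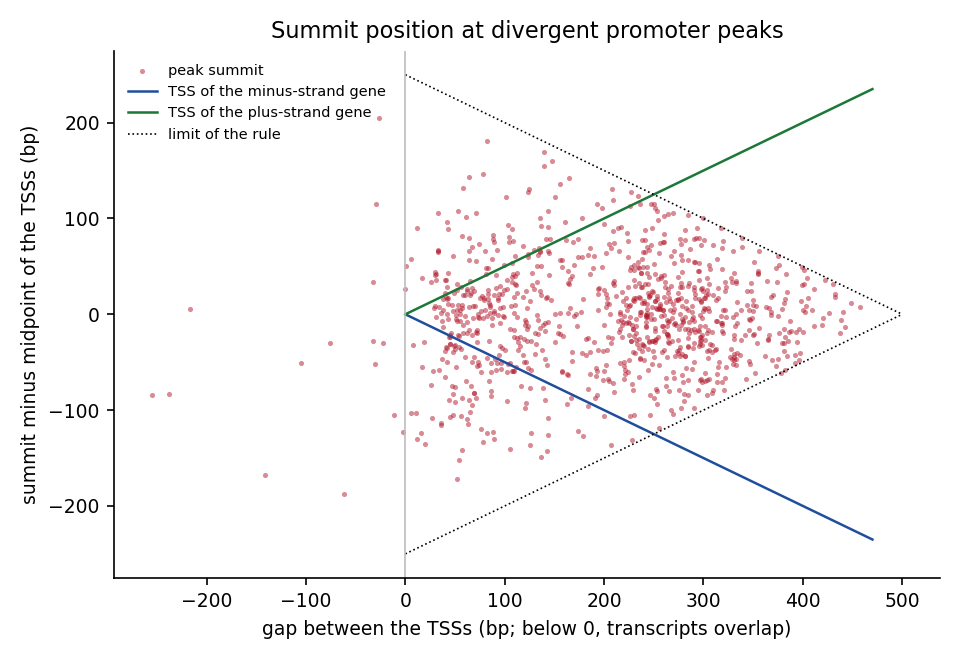
Distance of the summit from the midpoint of the TSSs (bp) against the gap (bp) for all 995 members, 1 point per peak. Blue and green lines are the TSSs of the minus-strand and plus-strand genes, and dotted lines are the 250-bp limit; summits crowd near the midpoint at gaps over 200 bp and scatter to both sides of the TSSs at gaps under 100 bp.

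To free the position from the rule, all summits of the list within 250 bp of either TSS were placed on the 749 annotated head-to-head pairs with gaps of 201 to 350 bp. Of 611 such summits, 550 (90.0%) lay between the TSSs. With each gap cut into 5 equal stretches, the middle stretch held 234 summits (38.3%), against 38 (6.22%) in that next to the minus-strand gene and 57 (9.33%) in that next to the plus-strand gene. Only 20 lay inside the minus-strand gene and 41 inside the plus-strand gene.

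Most annotated divergent pairs were bound. The annotation holds 2030 pairs of coding genes on opposite strands with TSSs at most 500 bp apart, and 1346 of them, or 66.3% (64.2 to 68.4), had a summit within 250 bp of either TSS. The share was 67.2% in replicate 2 and 65.0% in replicate 4. A summit within 250 bp of both TSSs was present at 1049 pairs (51.7%, 49.5 to 53.9). Of the 684 pairs without a reproducible summit, 350 (51.2%, 47.4 to 55.0) had one in the pooled list.

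The best known divergent pairs of the fly genome, those of the replication-dependent histone genes, were not among the members. The annotation holds 42 such pairs in the tandem histone repeat, 22 of His3 with His4 and 20 of His2A with His2B. None of the 42 had a reproducible summit within 250 bp of either TSS, and 1 had one in the pooled list. The repeat consists of near-identical copies, whose reads are hard to place, so these counts do not show that binding was absent; its part was not tested. Without the 42 pairs, 67.7% (65.6 to 69.8) of the other 1988 pairs had a summit. Single-copy histone genes did share divergent peaks: His2Av with ball at rank 1487, with 265.4 in replicate 2 and 195.1 in replicate 4, His4r with put, a TGF-beta receptor gene, at rank 2560, with 162.8 and 165.2, and His3.3A with CG14036 at rank 3445, with 118.6 and 143.2. These 3 were looked up for their known link to histone genes, not taken by rank.

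By gene, 61.8% (60.2 to 63.3) of the 3878 coding genes with such a partner had a summit within 250 bp of a TSS, against 20.1% (19.3 to 20.9) of the 10067 without one and 31.7% of all 13945 coding genes. The shares were 62.5% and 20.4% in replicate 2 and 60.0% and 18.9% in replicate 4, with the genes that have a partner first each time. With only the outermost TSS of each gene they were 59.7% and 18.3%. A summit between the TSSs counts for both genes of a pair, so the genes of a pair are not independent observations. Expression was not measured, and its part in the difference was not tested. Divergent peaks reached 2027 coding genes, 14.5% of all and 45.9% of those with a summit. Genes at divergent peaks had a median length of 2330 bp, against 3959 bp for genes at one-sided peaks only and 2166 bp for all coding genes.

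The DNA within 250 bp of either TSS grows with the distance between the TSSs, so wide pairs were searched over more of it. The share of pairs with a summit there varied with the gap. It was 48.1% (36.5 to 59.7) for the 77 pairs with overlapping transcripts, 56.1% at gaps of 1 to 50 bp, 67.8% at 51 to 100 bp and 63.9% at 101 to 150 bp. At 151 to 200 bp it was 53.7% (45.3 to 61.9), and at 201 to 250 bp it was 77.3% (71.5 to 82.5), intervals that do not overlap. Without pairs of the histone repeat the share was 70.8% (63.7 to 77.2) at 101 to 150 bp and 61.1% (52.2 to 69.5) at 151 to 200 bp. It was 71.8% at 251 to 300 bp, 76.8% at 301 to 350 bp, 67.8% at 351 to 400 bp and 60.3% (54.0 to 66.3) at 401 to 500 bp. A summit within 250 bp of both TSSs has less DNA to lie on as the gap grows. Such a summit was present at 73.1% of pairs at 201 to 250 bp, 56.8% at 301 to 350 bp and 32.8% at 351 to 400 bp. The median signal of the members was 206, 218, 268 and 235 in the 4 steps up to 200 bp, then 319, 334, 369, 351 and 415 in the wider steps. The gap and the signal had a Pearson r of 0.258 and a Spearman rho of 0.293 over the 979 head-to-head members.

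**Figure D3:**
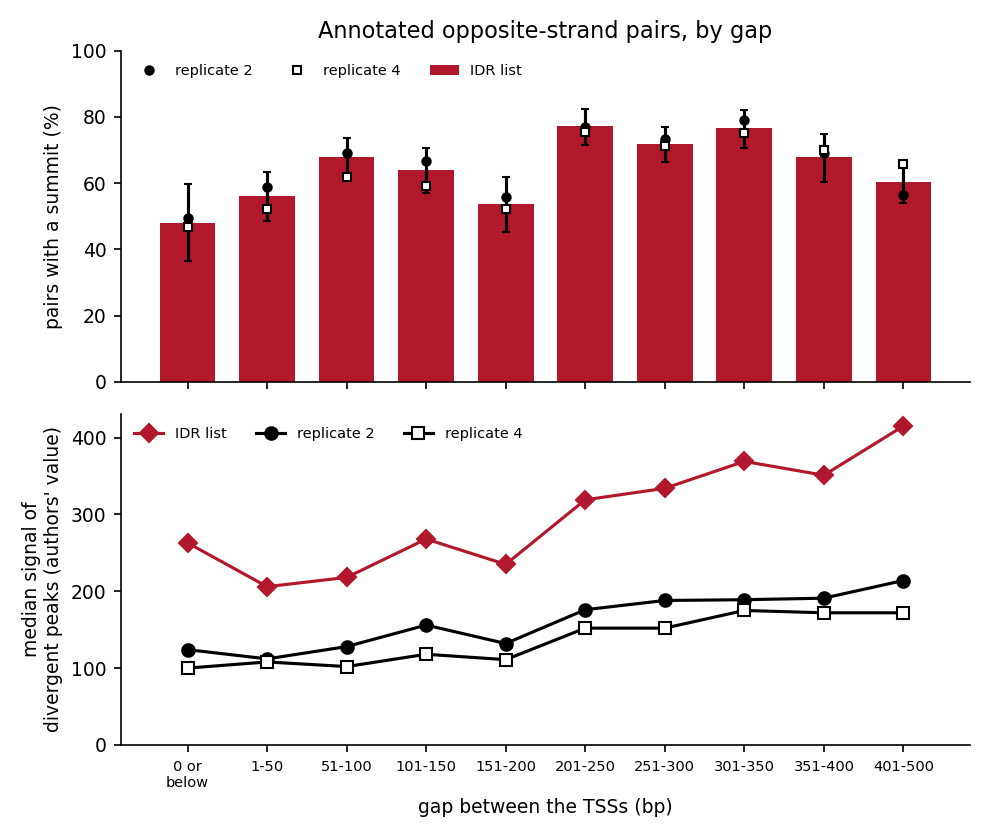
Upper panel, share of the annotated opposite-strand pairs (%) with a summit within 250 bp of either TSS, by gap (bp), as bars with 95% exact intervals for the reproducible (IDR) list and points for the 7915 strongest peaks of each replicate. Lower panel, median signal of the divergent peaks (authors' value) in the 3 lists; in all 3, every step above 200 bp is higher than every step from 1 to 200 bp.

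The base composition changed with the gap too. The 101-bp window centred on the summit had a median of 69.3% A and T at divergent peaks, against 60.4% at one-sided peaks and 69.3% at peaks with no coding TSS. Windows centred 500 bp to either side had 48.5% at divergent and 54.5% at one-sided peaks, so the A- and T-rich stretch of divergent peaks stood in surroundings poorer in A and T. Divergent peaks have coding TSSs on both strands and one-sided peaks on only 1, and the part of this in the flanks was not tested. Members with a gap of 1 to 150 bp had a median of 59.4%, and those with a gap over 200 bp had 72.3%. The 275 members lowest in A and T, up to 59.4%, had a median signal of 214 in the reproducible list, 129 in replicate 2 and 99.3 in replicate 4. The 217 members highest in A and T, from 76.2%, had 419, 228 and 188 in those lists. Among one-sided peaks the median signal in the reproducible list was 214 at the 698 lowest in A and T, up to 52.5%, and 304 at the 663 highest, from 70.3%. The gap, the A and T share and the signal moved together, and the part of each in the signal was not tested.

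Bound and unbound pairs of the same gap differed in the same feature. At the 562 head-to-head pairs of gap 201 to 350 bp with a summit, the mean A and T share at the midpoint was 74.80%, against 68.22% at the 187 pairs without one. At 120 bp on the plus-strand side of the midpoint it was 56.34% at the pairs with a summit and 59.23% at the pairs without one.

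**Figure D4:**
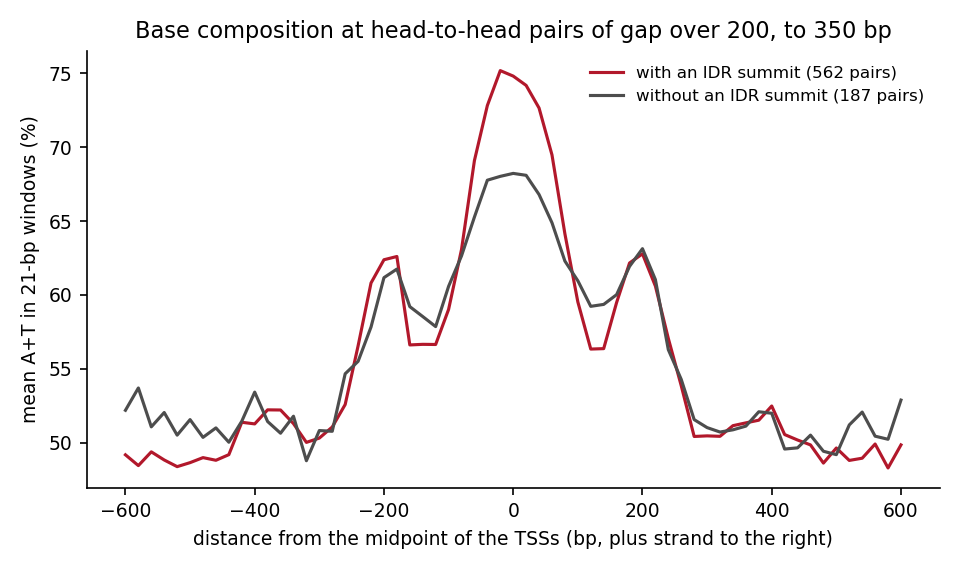
Mean share of A and T (%) in 21-bp windows against distance from the midpoint of the TSSs (bp) for head-to-head pairs of gap 201 to 350 bp, with a summit in the reproducible (IDR) list (red, 562 pairs) and without one (grey, 187 pairs). The red line peaks near 75.17% and the grey line near 68.22% at the midpoint; both rise again to a shoulder, at 62.78% and 63.13% at 200 bp on the plus-strand side, and lie at 50.47% and 51.03% at 300 bp.

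Promoter motifs were searched as exact letters on both strands in those windows. TATCGATA, the DRE, stood in 67 of 995 windows of divergent peaks (6.73%, 5.26 to 8.47), against 7.08% (6.13 to 8.12) of one-sided windows and 0.352% at peaks with no coding TSS. The windows 500 bp away from divergent summits held it in 0.101%, and 2.62% of windows centred 100 bp upstream of all coding genes did. CGATA, which is part of TATCGATA, stood in 31.9% (29.0 to 34.9) of divergent windows, against 30.1% (28.4 to 31.9) of one-sided windows, 11.1% of windows beside the divergent peaks and 20.4% at all coding genes. The intervals of divergent and one-sided peaks overlap for both motifs, and no difference between these classes was tested.

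GGTCACAC stood in 4.32% (3.14 to 5.78) of divergent windows, against 6.36% (5.46 to 7.36) of one-sided windows, intervals that overlap. It stood in 0.151% of windows beside the divergent peaks and 1.39% at all coding genes. The letters of the TATA box, TATAAA, stood in 24.7% (22.1 to 27.5) of divergent windows, against 17.8% (16.4 to 19.3) of one-sided windows. Peaks with no coding TSS held TATAAA about as often as divergent peaks, in 24.8% (23.5 to 26.1) of windows. The share was 4.72% beside the divergent peaks and 18.2% at all coding genes. These letters are made of A and T only, and the part of base composition in their share was not tested. The 302 matches were centred a median of 98.5 bp upstream of the nearest TSS. The 68 matches of TATCGATA were centred a median of 21.5 bp upstream of it, and 54 of them (79.4%) lay upstream.

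GAGAG, the site of GAGA factor, was rarer at divergent peaks, with 6.73% (5.26 to 8.47) of windows, against 11.9% (10.7 to 13.2) of one-sided windows. It stood in 10.5% (9.63 to 11.5) of windows at peaks with no coding TSS and 13.4% at all coding genes. CACACACA stood in 0.804% (0.348 to 1.58) of divergent and 1.88% (1.40 to 2.47) of one-sided windows. The E-box CAGCTG stood in 7.74% of divergent and 6.70% of one-sided windows, and the promoter Motif 7, CATCNCTA, in 3.12% and 3.95%. CAGGTAG, the site of Zelda, stood in 0.201% of divergent and 0.565% of one-sided windows. GCGGACG, the core of the human HINFP site, was found in 2 of 995 divergent windows (0.201%, 0.0244 to 0.724), against 0.979% (0.640 to 1.43) of one-sided windows. Its share was 0.188% (0.0811 to 0.369) at peaks with no coding TSS, which were as rich in A and T as divergent peaks. It was 1.61% (1.10 to 2.26) in windows beside the divergent peaks and 0.359% at all coding genes. The part of base composition in the shares of GCGGACG and GAGAG was not tested.

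The summit windows of members with narrow and wide gaps differed in their motifs. With gaps of 1 to 150 bp, 13.0% (9.62 to 17.1) of 338 windows held TATCGATA, against 3.01% (1.77 to 4.78) of 564 windows with gaps over 200 bp. CGATA stood in 50.9% (45.4 to 56.3) of narrow windows and in 113 of the 564 wide ones (interval 16.8 to 23.6%), and GGTCACAC in 10.4% (7.32 to 14.1) and 0.887% (0.288 to 2.06). CAGCTG stood in 12.1% (8.85 to 16.1) of narrow and 4.08% (2.60 to 6.06) of wide windows. TATAAA went the other way, with 12.4% (9.10 to 16.4) of narrow and 32.6% (28.8 to 36.7) of wide windows. In wide pairs the summit was usually farther from both TSSs, so a window around it reaches less of the DNA next to a TSS.

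Members with TATCGATA at the summit had a median signal of 213.7, against 292.5 without it, with 135.2 against 165.1 in replicate 2 and 97.5 against 140.3 in replicate 4. The order was the same for GGTCACAC, at 213.6 with it and 290.5 without it. For TATAAA it was the other way round, with 367.2 at peaks that held it and 267.2 at the others. Of the members with TATCGATA, 44 of 67 were head-to-head with a gap up to 150 bp, as were 35 of 43 with GGTCACAC. Of those with TATAAA, 184 of 246 had a gap over 200 bp. The median signal was 229.1 at the narrow gaps and 346.0 at the wide ones. The part of the gap in the signal differences between members with and without a motif was not tested. Windows centred on the pair in place of the summit were also searched; at gaps over 250 bp they leave out the DNA next to the TSSs. In windows of 251 bp at the midpoint of head-to-head pairs, TATCGATA stood in 16.5% (14.5 to 18.6) of the 1309 pairs with a summit, against 9.16% (7.05 to 11.7) of the 644 without one, or 9.80% (7.54 to 12.5) of the 602 that are left when the histone repeat is taken out. CATCNCTA stood in 10.8% (9.21 to 12.7) and 3.42% (2.15 to 5.13) of them, and GGTCACAC in 10.2% (8.65 to 12.0) and 7.14% (5.28 to 9.41), where the intervals overlap.

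Among all words of 8 bases, the 10 with the largest difference in share between the summit windows and the windows beside them were made of A and T only, led by AAATAAAT, in 10.7% of summit windows and 1.06% of those beside them. Among words with at least 2 C or G, TATCGATA led, and the first 10 also held GGTCACAC, AACAGCTG (4.22% at summits, 0.553% beside them) and CAACACTG (3.42% and 0.151%). These words also stood at one-sided summits, with AAATAAAT in 5.68%, AACAGCTG in 3.01% and CAACACTG in 2.48% of windows.

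The strongest divergent peak, at rank 6 of the list, stood between Art3, a protein arginine methyltransferase gene, and mRpS10, of the small mitochondrial ribosomal subunit. Its signal was 2130.2 in replicate 2 and 1790.4 in replicate 4, at rank 6 in each, and its summits in the replicates were 2 bp apart or less from that of the reproducible list. Rank 13, between CG11309 and CG7632, had signals of 1840.4 in replicate 2 and 1369.2 in replicate 4. Chro, the gene of Chromator, a chromosomal protein of interbands, shares rank 16 with Ssl1, a gene of the general transcription factor TFIIH, with 1583.7 in replicate 2 and 1512.7 in replicate 4. These peaks were within the first 20 of both replicate lists.

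At rank 18 stood eIF4EHP, a cap-binding repressor of translation, with CG18428, at 1669.2 in replicate 2 and 1291.0 in replicate 4. The pair CG13390 and CG17294 at rank 27 had 1376.6 and 1152.8 in the same order, and Pdrg1 with Pal1, an enzyme gene of neuropeptide amidation, at rank 34 had 1348.8 and 1078.9. At rank 52, sta, which encodes the ribosomal protein SA, stood opposite insomniac (inc), a sleep gene, with 1076.9 in replicate 2 and 1013.0 in replicate 4. Fbw5 and CG9147 followed at rank 60, where the summit lay 2 bp from the TSS of CG9147.

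Cp190, an insulator protein gene, and CG4338 stood at rank 71, with 1084.7 in replicate 2 and 805.7 in replicate 4. Lon, a mitochondrial protease gene, and PIG-F, of GPI anchor synthesis, were next at rank 72, with 997.4 and 882.7. The kinase gene Mkk4, of the JNK pathway, shares its peak at rank 75 with SLIRP2, with 998.3 and 865.8. Next came mRpL23 with CG9004 at rank 77, and then CG7183 with CG7988 at rank 85. The endocytosis gene Reps, with l(2)gd1, a regulator of Notch trafficking, stood at rank 89. The ATPase gene of the SWI/SNF remodeller, brm, stood opposite Arl1, a Golgi GTPase gene, at rank 90, with 942.7 in replicate 2 and 826.5 in replicate 4.

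The rest of the strongest members were Pex11ab, of peroxisomes, with CG8320, CG1602 with PIG-G, Hrd3, of protein degradation at the endoplasmic reticulum, with PTPMT1, and Tcs5, of tRNA modification, with CHMP2B, an ESCRT-III gene. They ranked 101 to 107. E(z), the histone H3 lysine methyltransferase gene of Polycomb repression, with Cnep1r2, was named after its values were seen. It ranked 148, its gap was 16 bp, and the summit lay 116 bp inside E(z). A 3R locus with 10 genes at rank 377 holds the pre-mod(mdg4) units, precursors that are joined in trans to mod(mdg4) transcripts. The next strongest with 4 or more genes held PIG-M and NC2alpha, at rank 868, and COX6B and CG33932, at rank 2184.

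Near the limit, CG13690 and RpLP1, and CG12159 and Cul1, were the members whose farther TSS lay at 250 bp. Just outside it, l(3)72Dn and Tmx3, and dgt5 and CG8545, had a TSS at 251 bp. The weakest members, at ranks 7819 to 7876, were CG9921 with Dsp1, ATPsyngamma with yata, and CG6418 with Blos4. The replicates placed 3 members farthest apart: bsf with Ntf-2r, at rank 3973 in replicate 2 and 19623 in replicate 4, CG6685 with the caspase gene Dronc, at 9568 and 23513, and Zwilch with CG1542, at 5988 and 14619.

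The genes were also grouped into 17 lists by the start of their symbol, such as Rp, mRp, Taf, Vps or Nup. Only the aminoacyl-tRNA synthetases were matched by RS in the symbol, as in SerRS, and GluProRS is not in that list. Genes of the same function with other symbols are not in the lists. Against 14.5% of all coding genes, the share was 61.1% of 18 splicing genes, 49.3% of 73 mitochondrial ribosomal protein genes, 40.6% of 32 aminoacyl-tRNA synthetase genes, 10 of 25 Mediator genes and 38.2% of 55 transcription machinery genes. It was 35.4% of 48 proteasome genes, 33.3% of 21 nuclear pore, 27 vacuolar sorting and 12 replication genes each, 30.0% of 40 genes of complexes III, IV and V, 28.6% of 21 cyclin and cyclin-dependent kinase genes, 27.5% of 40 complex I genes and 27.3% of 33 Rab GTPase genes. The list of cytosolic ribosomal protein genes had the highest share with any summit among the 17 lists, 78 of 92 genes (84.8%), and 21 of the 92 (22.8%) were at a divergent peak. Those 21 include RpL24-like, RpLP0-like and RpL7-like, which are in the list by symbol only. All counts given for this list include them. Translation initiation genes had 15.9% of 44, mitochondrial import genes 13.3% of 15 and chaperonin genes 0 of 8, near or below all coding genes.

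**Figure D5:**
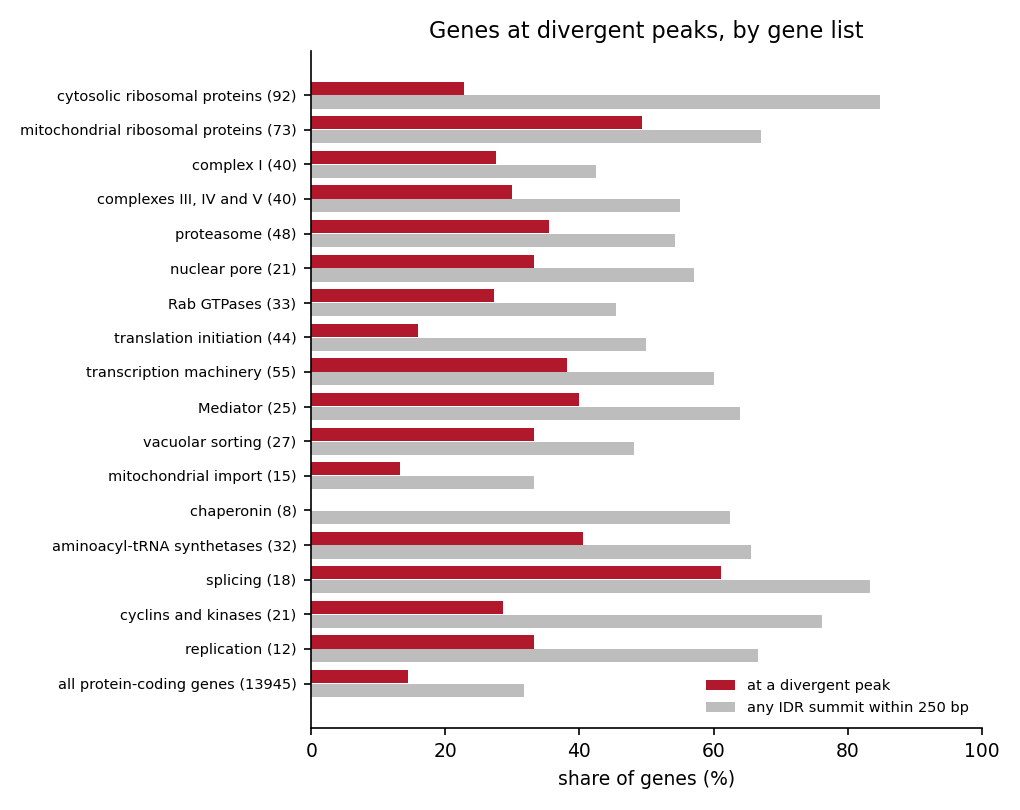
Share of the genes of each list (%, number of genes in brackets) at a divergent peak (red) and with any reproducible (IDR) summit within 250 bp of a TSS (grey). Red runs from 0 for the chaperonin genes to 61.1% for the splicing genes, and all coding genes have 14.5% red and 31.7% grey.

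The lists differ in how many members have a partner at all, and only a gene with a partner can be at a divergent peak. A partner on the opposite strand within 500 bp was annotated for 72.6% of mitochondrial and 39.1% of cytosolic ribosomal protein genes, against 27.8% of all coding genes. Of all genes with a partner, 52.3% were at a divergent peak. Against that share, 36 of 53 mitochondrial and 21 of 36 cytosolic ribosomal protein genes were, 13 of 20 synthetase, 11 of 14 splicing, 21 of 33 transcription machinery, 17 of 24 proteasome and 10 of 17 Mediator genes. The counts were 12 of 19 for complexes III, IV and V, 11 of 20 for complex I, 9 of 15 for both the Rab GTPases and vacuolar sorting, 7 of 14 for the nuclear pore and 7 of 18 for translation initiation. The smallest lists had 6 of 7 cyclin and kinase, 4 of 5 replication, 2 of 4 mitochondrial import and 0 of 4 chaperonin genes. Several lists that stand above all coding genes were near the share of genes with a partner.

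Some members of known function outside the lists ranked above the strongest listed ones, or, for GluProRS, above all listed ones but SerRS. Besides sta, at rank 52, and Ssl1, at rank 16, these were Phf5a, of the SF3b splicing complex, at rank 177, Brf, of TFIIIB, at rank 274, and the synthetase gene GluProRS, at rank 826. The complex IV gene levy, at rank 1330, and the Mcm4 gene dpa, at rank 2186, were further ones. All were named after their values were seen, and the order given next holds within the symbol lists only.

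Among listed cytosolic ribosomal protein genes the strongest members were RpL34b with CG8132, at rank 272, and RpS27 with the nuclear pore gene Nup37, at rank 454. The transcription machinery list was led by the TFIID gene Taf5 with the peroxisome gene Pex6, at rank 292, with 602.4 in replicate 2 and 450.5 in replicate 4, and by 140up with Polr2B, a gene of RNA polymerase II, at rank 321. The strongest Mediator peaks stood at elm with MED27 and at MED30 with Rev1. Nuclear pore genes also had wfs1 with Nup133, at rank 577. In the splicing list they were U2af50 with PIG-Q, at rank 384, and snRNP-U1-C with gukh.

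Listed genes of vacuolar sorting had their strongest peaks at Fur1 with Vps33B, at rank 172, and at Vps36 with Liprin-beta. In the list of complex I they were TppII with ND-MWFE and ND-51 with CG13994, for complexes III, IV and V ATPsynF with CG3548 and Sec3 with COX7B, and for the proteasome l(2)37Bb with Rpn3 and mRpL39 with Prosbeta2. Behind SerRS, the synthetase list had ProRS-m with Snup, at rank 1930, and behind eIF4EHP the initiation list had eIF3a with CG1074, at rank 1824. The lists led by weaker peaks were the Rab GTPases, with Rab30 and Caper at rank 1996 and RabX1 and mi at rank 2568, mitochondrial import, with Tim10 and Ppcdc at rank 3212, and replication, with Art1 and Mcm5 at rank 4005 and bur and Mcm10 at rank 4232. In the list of cyclins and kinases SAK with Cdk12 led, at rank 828.

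At 8 peaks both genes were in a list. Besides RpS27 with Nup37 and mRpL39 with Prosbeta2, these were Cdk1 with mRpS7, TrpRS with Vps16A, Vps39 with eIF1A, mRpL55 with ATPsynD, CycC with UQCR-C1, and Taf10b with Taf10. The last pair encodes paralogous subunits of TFIID, and its summit lay 1 bp from the TSS of Taf10b, with signals of 106.4 in replicate 2 and 66.4 in replicate 4. Cdk1 and mRpS7, 400 bp apart, ranked 3690 in replicate 2 and 1540 in replicate 4.

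The summit was not always nearer to the listed gene, and no difference between lists was tested. It was nearer to the listed gene at 16 of 24 cytosolic and 14 of 36 mitochondrial ribosomal protein peaks, 7 of 11 complex I peaks, 9 of 12 of complexes III, IV and V, 8 of 11 splicing peaks and 8 of 9 Rab peaks. The counts were 8 of 17 for the proteasome, 5 of 9 for Mediator, 4 of 9 for vacuolar sorting, 3 of 8 for the nuclear pore, 3 of 7 for translation initiation and 7 of 13 for the synthetases. They were 6 of 18 for the transcription machinery, 1 of 4 for replication, 1 of 2 for mitochondrial import and 0 of 6 for cyclins and kinases.

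Divergent peaks were spread over the chromosome arms much as the annotated pairs were. Arm 3R held 269 (27.0%), with 27.1% of pairs, 2L held 204, 2R held 196, 3L held 195 and X held 129 (13.0%), with 14.5% of pairs. The share of pairs with a summit ran from 58.0% on X to 70.2% on 3R, and was 2 of 7 on the small chromosome 4.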

How the data were processed

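The authors deposited 4 peak lists in dm6: 1 for each replicate and 1 pooled list, each of 30000 peaks, and the reproducible list of 7915 peaks, thresholded by the irreproducible discovery rate (IDR), per the deposited notes. The lists came from alignments and 1 control alignment. Not given in the sources used here are the aligner and the program that called peaks. Reproducible peaks are the 7915 strongest of the pooled list. The deposited signal is the authors' score on an unstated scale and served to order peaks inside 1 list. No test used the authors' −log10 q values, and positions are as deposited.

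Coding TSSs were those of Ensembl 115 for BDGP6.54, which shares its coordinates with dm6: 13945 protein-coding genes and 19607 TSSs. For members with several TSSs on a strand, the nearest to the summit was used. Replicate overlap needed 1 bp. Motifs were searched in 101-bp windows. With 1 group and no second condition, no test was made: counts have exact Clopper-Pearson intervals at 95%, and medians are given in each replicate. Peaks are not replicates. The members and the 17 gene lists, matched by gene symbol, were chosen with earlier results of these data known, and symbols that only share letters with a list were removed after the lists were seen. The RpL symbols that end in -like were kept. The genes named were the 20 strongest members, the 2 strongest of each list, those with both genes in lists, the extremes of gap, distance, strength and replicate rank, and those with 4 or more genes; a few of these are not reported here. Code was checked on simulated peaks. Python 3.11.15, numpy 2.4.6, scipy 1.17.1 and matplotlib 3.10.9 were used.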

Additional observations from a re-analysis of the deposited data

How the results depend on the processing

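Over the alternatives tried, 49 of the principal values stayed within their range and 43 moved. The range was the 95% interval for a share, 1.5 times for a count, and 1 SD between the replicates for a median or ratio. With a TSS distance of 100 bp there were 232 divergent peaks, 10.1% of promoter peaks, with a signal ratio of 0.989 to one-sided peaks, 69.8% of summits between the TSSs, a median gap of 73.0 bp and 43.4% of pairs with a summit; TATCGATA stood in 15.1%, CGATA in 57.8%, GGTCACAC in 13.8% and TATAAA in 7.76% of windows. At 500 bp there were 1512 peaks, 35.8% of promoter peaks, with a ratio of 1.16 and a median gap of 278 bp. With 1 start per gene the share was 29.1%, the ratio 1.28 and the summits between 76.7%. The strongest 50% of the list gave 614 peaks, 34.5%, a ratio of 1.13, 83.4% between, a gap of 244 bp and 40.3% of pairs, with 4.56% TATCGATA, 24.4% CGATA, 2.12% GGTCACAC and 30.1% TATAAA. The pooled list gave 17.2%, a ratio of 2.02, 71.8% between, a gap of 203 bp, 83.5% of pairs and 21.6% TATAAA. Windows reaching 100 bp to each side held the motifs in 14.7%, 52.8%, 10.5% and 40.7% in the same order. Counting each pair once, a setting added after seeing the data, gave a ratio of 1.29, and leaving out the repeated histone pairs, also added then, gave 67.7% of pairs. Leaving out a replicate gave 967 to 1016 peaks, a ratio of 1.26 to 1.27 and 28.4% to 33.9% CGATA. Overlap with both replicates was 96.7% when 50% of the peak had to be covered and 90.1% among the strongest replicate peaks. The RefSeq annotation moved none of these values. Of the other motifs' values, 41 stayed and 13 moved. The causes were not tested, except that a shorter distance limit admits only narrower gaps and a shorter list only stronger peaks. A shorter limit also moves members with a TSS beyond it into the one-sided class or out of both classes.

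No paired analysis was possible because there is only 1 group. The depth is unknown, and 2 replicates of 1 line give little measure of the spread.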
